A study of Homo sapiens with 3 samples.

Results

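RNA-seq of oxaliplatin-resistant CAL27 cells (CAL27/OXA) was compared with RNA-seq of the parental CAL27 cells, with 1 library for each line. A gene entered the comparison when its counts averaged 10 or more across the 3 labelled libraries of the series, which kept 13676 of the 19220 genes in the count table. CAL27 is a human oral squamous cell carcinoma (OSCC) line. The parental cells were grown without drug, the CAL27/OXA cells were kept in 10 μM oxaliplatin (OXA), and a CAL27/5FU line was kept in 10 μM 5-fluorouracil (5FU). The labels give the parental cells as wild type and the derivatives as resistant, with no engineered allele in any group. The CAL27/5FU library entered the scaling and the filter, and its ratio to CAL27 is given beside some values. Both derivatives are compared with the same CAL27 library, so their ratios share its error. Each derivative is 1 line, and nothing in the labels says whether it is a clone or whether its cells were off the drug before harvest. With 1 labelled library per line no difference has a replicate check, no p-value was computed, and what is particular to the resistance cannot be told apart from what is particular to this line or this culture.

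Oxaliplatin is a platinum drug that binds to DNA bases and forms crosslinks, mainly within a strand. Copper and organic cation transporters can carry platinum drugs, metallothioneins and glutathione can bind platinum through their thiol groups, and nucleotide excision repair, homologous recombination and translesion polymerases handle the DNA lesions. Oxaliplatin is also known for disturbing the synthesis of ribosomes. A squamous carcinoma line such as CAL27 carries the basal keratins, desmosomes and differentiation genes of stratified epithelium.

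The libraries of CAL27 and CAL27/OXA had 41786182 and 43455488 counts, and that of CAL27/5FU had 37297713. At these depths, 1 count stood for 0.0257 CPM (counts scaled to the effective library size) in CAL27 and 0.0225 in CAL27/OXA. The squamous label held in both libraries for TP63, the master factor of stratified epithelium (23645 and 29498 counts), and for CDH1, EPCAM and SFN, whose log2 ratios of CAL27/OXA over CAL27 lay between -0.16 and 0.08. The keratin and desmosome markers of the same list did not hold their level, and 6 of the 10 squamous markers were more than 2-fold lower. Of 8 leukocyte markers only CD14 and CD68 passed the filter, and PTPRC had 2 and 0 counts. Of 9 fibroblast markers 4 passed, and COL3A1 and THY1 had 0 counts in all 3 libraries. The summed level of the leukocyte markers that passed was 97.0 CPM in CAL27 and 121.5 CPM in CAL27/OXA. Of 6 endothelial markers 4 passed, and the summed level of those was 2.62 CPM in CAL27 and 5.27 CPM in CAL27/OXA. In bulk RNA, fewer cells of a type and less RNA per cell cannot be told apart.

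Compared with CAL27, 894 genes were more than 2-fold higher in CAL27/OXA (6.54% of the tested genes) and 1269 were lower by more than 2-fold (9.28%). The remaining 11513 (84.2%) lay within 2-fold. The shares of the gene lists below are to be read against these. The exact 95% interval on the pair of counts, which covers counting error only, lay wholly past 2-fold for 526 higher genes (3.85%) and 864 lower genes (6.32%). Past 4-fold there were 296 higher and 412 lower genes. Over the whole set, the log2 ratio had a median of 0.01, and its absolute value had a median of 0.34. Lower genes made up 58.7% of the genes past 2-fold, and 48.9% when the libraries were scaled by total counts alone, which moved the median of all genes to 0.14. Many of the genes past 2-fold had low counts. Among the 2736 genes with the lowest means (10.0 to 168.7 counts), 496 were higher and 568 lower, whereas among the 2735 with the highest means 45 were higher and 157 lower.

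**Figure D1:**
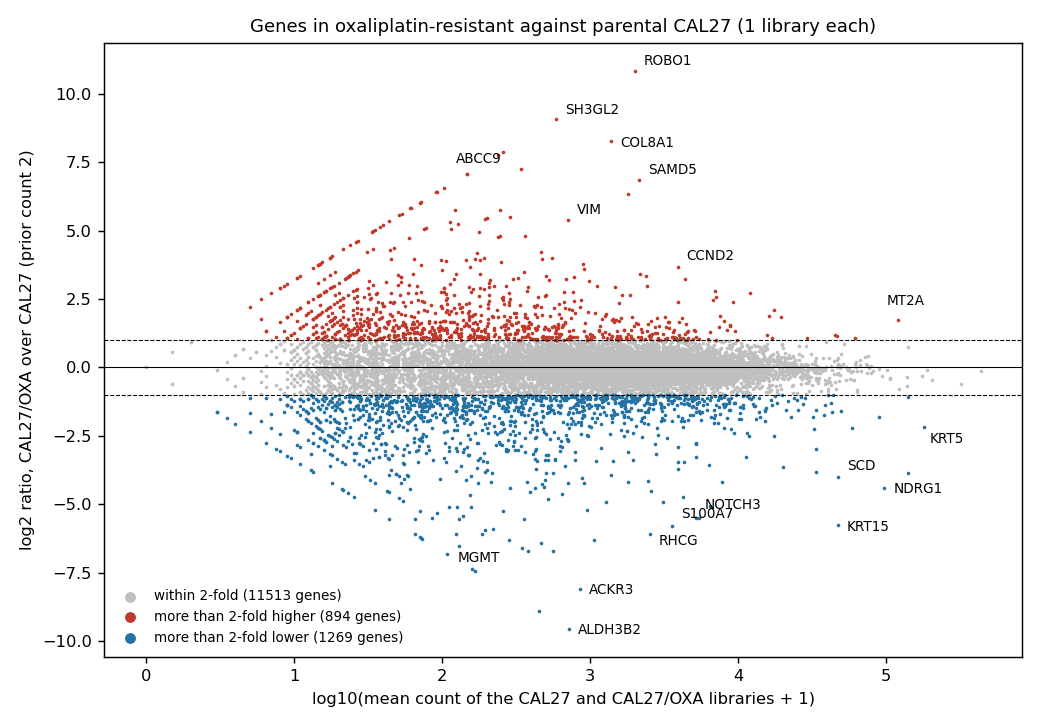
Each point is 1 of 13676 tested genes, with the log10 of its mean count in the CAL27 and CAL27/OXA libraries (plus 1) on the x axis and its log2 ratio of CAL27/OXA over CAL27 (prior count 2) on the y axis. The 894 genes more than 2-fold higher are red, the 1269 more than 2-fold lower are blue, and ROBO1 and ALDH3B2 lie at the 2 ends.

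The genes with the largest rise among those that averaged 100 counts or more in these 2 libraries were mostly silent or nearly silent in CAL27. ROBO1, a receptor for SLIT guidance cues, had 0 counts in CAL27, 4013 in CAL27/OXA and 1186 in the 5FU-resistant line. Its level in CAL27/OXA was at least 1173-fold higher, taking the floor of 3 counts per library for CAL27. SH3GL2, an endophilin of synaptic vesicle endocytosis, had 0 and 1173 counts (at least 343-fold higher). COL8A1, a short-chain collagen, had 6 counts in CAL27 and 2760 in CAL27/OXA, with a log2 ratio of 8.26 (95% interval 7.53 to 10.1). These 3 genes were also raised in the CAL27/5FU library, where SH3GL2 had 156 counts and COL8A1 had 2533.

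MYEF2, NEGR1 and LRRTM4 were at 0 in CAL27 as well. MYEF2 had 0 and 511 counts, NEGR1, a neuronal adhesion molecule, 0 and 293, and LRRTM4, a synaptic leucine-rich repeat protein, 0 and 292. TMPRSS15, the enteropeptidase that activates trypsinogen, had 0 counts in CAL27, 475 in CAL27/OXA and only 2 in CAL27/5FU. MYEF2 and LRRTM4 also stood higher in CAL27/OXA than in CAL27/5FU, where each had 20 counts. NEGR1 had 134 counts in CAL27/5FU. PGR, the progesterone receptor, had 0, 204 and 307 counts in CAL27, CAL27/OXA and CAL27/5FU. SAMD5 rose from 30 to 4218 counts (log2 ratio 6.86) and ADD2, a subunit of the membrane skeleton protein adducin, from 37 to 3573 (6.33). CAL27/5FU had 653 counts for SAMD5 and 1542 for ADD2. ABCC9, a sulfonylurea receptor subunit of potassium channels that belongs to the ABC family, had 2 and 679 counts (log2 ratio 7.26, 95% interval 6.36 to 11.3). SLAIN1, a microtubule-binding protein, had 2 and 241 counts (5.77, 4.86 to 9.78). CAL27/5FU had 217 counts for ABCC9 and 367 for SLAIN1. On the FPKM scale with a pseudocount of 1, which damps genes that are low in a library, ABCC9 had 1.76 and SLAIN1 1.73. The other genes of the 15 with the largest rise were DLC1, a GTPase-activating protein, BNC2, a basonuclin zinc finger protein, and NTNG1, a netrin-like axon guidance protein, with log2 ratios from 5.45 to 5.75. DLC1, BNC2 and NTNG1 had 6, 9 and 6 counts in CAL27 and 134, 387 and 266 in CAL27/5FU.

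In all, 15 genes had 0 counts in CAL27 and at least 100 in CAL27/OXA. Beside those named above they were RTN1, POU3F2, GABRG1, SOX5, ROBO2, SGCZ, LINGO2 and STXBP6, with 101 to 182 counts. STXBP6 had 0 counts in CAL27/5FU as well, and ROBO2, another SLIT receptor, had 2. A further 9 genes had 0 counts in CAL27/OXA and at least 100 in CAL27, among them CCDC155, LYNX1 and CDHR1, which also had 0 in CAL27/5FU.

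Of the 15 genes with the largest fall, 14 had 28 counts or fewer in CAL27/OXA. ALDH3B2, an aldehyde dehydrogenase, had 1436 counts in CAL27, 0 in CAL27/OXA, which was at least 546-fold lower, and 60 in CAL27/5FU. CCDC155 had 906 and 0 counts, TMPRSS13, a membrane serine protease, 333 and 0, RBBP8NL 316 and 0, and LYNX1, a modulator of nicotinic receptors, 215 and 0. ACKR3, a scavenging receptor for the chemokine CXCL12, had 1709 and 5 counts (log2 ratio -8.09, 95% interval -10.2 to -7.38). GJB6, a connexin of gap junctions, had 1113 and 10 counts, LY6D, a surface protein of keratinocytes, 916 and 10, and RHCG, an ammonium transporter of squamous mucosa, 4961 and 81. S100A7A had 2103 and 28 counts, but it is close in sequence to S100A7 and reads may have been split between them. BCL11B, a zinc finger repressor, had 257 counts in CAL27 and 1 in CAL27/OXA.

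Other genes with large falls in CAL27/OXA kept far more counts in CAL27/5FU. CPPED1, a phosphatase, had 751 counts in CAL27, 6 in CAL27/OXA and 409 in CAL27/5FU. CP, the copper-carrying ferroxidase ceruloplasmin, had 561, 6 and 399 counts in the same order. STRA6, the membrane receptor that takes up retinol, had 246 counts in CAL27, 2 in CAL27/OXA and 585 in CAL27/5FU. MGMT, which also belongs to these 15 genes, was low in both derivatives and is described with DNA repair.

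Of 18 tested copper and cation transporters 0 were more than 2-fold higher and 3 were lower (16.7%), with a median log2 ratio of 0.11. The share within 2-fold, 83.3%, was close to that of all tested genes (84.2%). SLC31A1, the copper importer CTR1, had 3324 counts in CAL27 and 3536 in CAL27/OXA (log2 ratio -0.10, 95% interval -0.17 to -0.03). Its sign turned under total-count and FPKM scaling (up to 0.03). The copper-exporting ATPases ATP7A and ATP7B had log2 ratios of -0.38 and -0.28, and the chaperone ATOX1 had 0.22. The 3 lower genes were SLC47A2, a proton-coupled exporter of cations (806 and 314 counts, log2 ratio -1.54), SLC22A3, an organic cation importer (117 and 56 counts, -1.22), and STEAP4, a metalloreductase (149 and 76 counts, -1.14). SLC47A2 and SLC22A3 were lower in CAL27/5FU as well (-1.65 and -3.33). The carnitine transporters SLC22A5 and SLC22A4 reached 0.87 and 0.82.

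Of 11 tested ABC efflux transporters 2 were higher (18.2%, against 6.54% over all tested genes) and 1 was lower (9.09%, near the 9.28% over all tested genes). ABCG2, an exporter of many drugs known as BCRP, had 57 counts in CAL27, 244 in CAL27/OXA (log2 ratio 1.87, 95% interval 1.49 to 2.35) and 26 in CAL27/5FU. ABCC6 had 11 and 33 counts (1.26, 0.38 to 2.53), and ABCC5, an exporter of nucleotide analogs, fell by 1.34 on the log2 scale from 3486 to 1569 counts. ABCC2, an exporter of glutathione conjugates that can carry platinum complexes, had 91 and 157 counts (0.59). ABCB1, the P-glycoprotein, was at or under the floor in both libraries (0 and 1 counts), whereas it had 368 counts in CAL27/5FU. The median of the list was 0.23, and 0.00 with ABCB1 taken as unchanged. It turned to -0.09 under 1 FPKM setting.

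Metallothioneins are small cysteine-rich proteins that bind zinc, copper and platinum. Of the 5 tested members 3 were higher, 1 was lower and the median log2 ratio was 1.09. MT2A, the most abundant of them per length, had 49847 counts in CAL27, 189646 in CAL27/OXA and 64295 in CAL27/5FU. Its log2 ratio in CAL27/OXA was 1.74 (95% interval 1.72 to 1.75), and its deposited FPKM, which are per length and per total counts, went from 2846 to 10410. MT1E rose from 17089 to 41567 counts (log2 ratio 1.09) and MT1M from 76 to 500 (2.50, 2.18 to 2.90). MT1X moved the other way, from 6415 to 2876 counts (-1.35), and MT1F had 297 and 331 counts (-0.03). CAL27/5FU had values of 0.36 for MT2A, 0.27 for MT1E and -1.20 for MT1X. MT1M was higher in CAL27/5FU too, with 258 counts (6.59 CPM, against 1.95 CPM in CAL27). The genes are close copies of each other, so reads may have been split between them, and 6 other members were at 2 counts or fewer in every library. Without the filter these members put the median of the list at -0.03.

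The metallothionein genes lie side by side on chromosome 16, and their upstream sequences hold metal response elements, which the zinc-sensing factor MTF1 binds. The 250 bases before the RefSeq transcript starts of MT2A (chr16:56608334-56608583) and MT1X (chr16:56682220-56682469) are shown because these neighbouring genes moved in opposite directions. Both are on the plus strand of GRCh38.p14 and are written 5′ to 3′. Capitals mark each match to the core TGCACNC or TGCGCNC on either strand.
MT2A: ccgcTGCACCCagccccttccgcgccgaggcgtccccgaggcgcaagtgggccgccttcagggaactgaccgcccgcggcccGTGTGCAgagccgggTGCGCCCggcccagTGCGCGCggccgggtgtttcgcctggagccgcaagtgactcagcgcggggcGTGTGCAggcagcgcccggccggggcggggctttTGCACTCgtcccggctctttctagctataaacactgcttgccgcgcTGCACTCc
MT1X: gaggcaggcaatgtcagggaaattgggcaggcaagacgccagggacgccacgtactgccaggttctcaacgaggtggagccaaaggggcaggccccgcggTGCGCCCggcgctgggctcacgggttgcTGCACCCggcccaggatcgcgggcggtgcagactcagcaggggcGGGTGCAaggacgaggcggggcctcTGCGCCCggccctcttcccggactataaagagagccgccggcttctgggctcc
The MT2A window held 7 matches and the MT1X window held 4. Of 27305 such windows in RefSeq 24.7% held at least 1 match and 1.56% held 3 or more. Both windows thus carry the core more than once, although MT2A was higher and MT1X lower in CAL27/OXA. A match describes the letters only, and it is not a measured site. Promoter sequences of other metallothioneins were not used here.

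**Figure D2:**
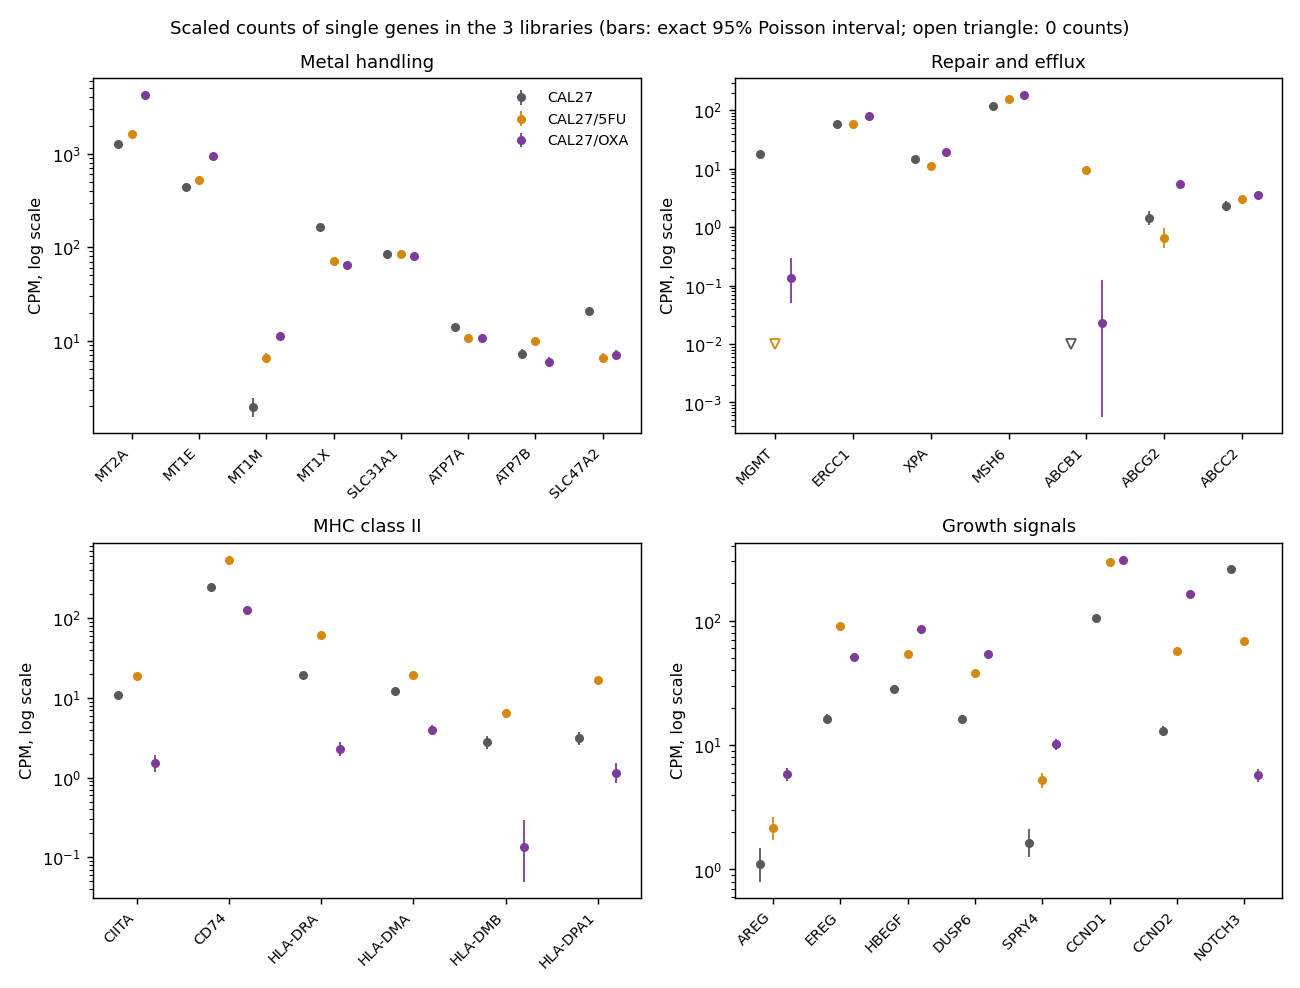
Counts scaled to library size (CPM, log axis) of single genes in the CAL27, CAL27/5FU and CAL27/OXA libraries, with bars for the exact 95% Poisson interval of each count and open triangles for 0 counts. MT2A, MT1E and MT1M are highest in CAL27/OXA, MGMT is near or at 0 in both derivatives, the MHC class II genes are lowest in CAL27/OXA and above CAL27 in CAL27/5FU, and CCND2 is highest in CAL27/OXA.

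Genes of glutathione synthesis and targets of the oxidative stress factor NRF2 were mostly within 2-fold (87.5%, near the 84.2% of all tested genes). Of 40 tested genes 1 was higher (2.5%, against 6.54% over all tested genes) and 4 were lower (10.0%, against 9.28%). The median log2 ratio was -0.12, which turned to as much as 0.05 under total-count and FPKM scaling. SLC7A11, the cystine importer that feeds glutathione synthesis, rose from 1748 to 6260 counts (log2 ratio 1.65), against 0.81 in CAL27/5FU. GCLM, the modifier subunit of the enzyme that makes the glutathione precursor, reached 0.59, while its catalytic partner GCLC was at -0.39. FTH1, the heavy chain of the iron store ferritin, fell from 183252 to 98849 counts (-1.08), whereas it was 0.46 in CAL27/5FU. The other lower genes were AKR1B10 (95 and 28 counts), GPX2 (198 and 63 counts) and GSTM2 (40 and 16 counts). GSTP1, a glutathione transferase, was within 2-fold (-0.46), and so were NQO1 (0.71) and TXNRD1 (0.50).

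Of 27 tested genes of nucleotide excision repair 1 was higher and 0 were lower (96.3% within 2-fold, against 84.2% of all tested genes, median 0.13), and of 33 genes of crosslink and homologous recombination repair 0 were past 2-fold (median 0.22). Of 8 mismatch repair genes 0 were past 2-fold as well (median 0.30). ERCC1, part of the nuclease that cuts beside platinum adducts, had 2257 and 3540 counts (log2 ratio 0.46), and XPA, which verifies the lesion, had 0.41. The mismatch repair gene MSH6 had 0.61. RAD50, of the break-sensing complex, had the highest value of the crosslink list (0.83), and its partner NBN, which lies on 8q, had -0.66.

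MGMT stood far from the other repair genes. This methyltransferase removes alkyl groups from guanine. It had 687 counts in CAL27 and 6 in CAL27/OXA, a log2 ratio of -6.59 (95% interval -8.48 to -5.90), and 0 in CAL27/5FU. The 10 nearest tested genes around MGMT on chromosome 10 had a median of -0.21. In the list of translesion synthesis and direct reversal, which holds MGMT, 1 of 15 genes was higher and 1 lower (6.67% each, median 0.17). Over all tested genes the shares were 6.54% and 9.28%. The higher gene was ALKBH2, a dioxygenase that also reverses alkylation (411 and 1026 counts, 1.13), and the polymerase subunit REV3L had 0.57.

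Of 33 tested targets of p53 2 were higher and 2 lower (87.9% within 2-fold, near the 84.2% of all tested genes), and their median of -0.09 changed sign under total-count and FPKM scaling. TP53INP1, a stress-induced gene on 8q, had 788 and 81 counts (log2 ratio -3.44). AEN, an apoptosis nuclease, rose from 587 to 1698 counts (1.34), and CDKN1A, the cell-cycle inhibitor p21, was at -0.62. The BCL2 family had 18 tested members, with a median of 0.00. Of these 3 were higher (16.7%, against 6.54% over all tested genes) and 4 were lower (22.2%, against 9.28%). The whole counting interval was past 2-fold for 1 of the 3 higher and 3 of the 4 lower members. BMF, a pro-apoptotic BH3-only protein, had 1642 counts in CAL27, 112 in CAL27/OXA (-4.04, 95% interval -4.35 to -3.79) and 1591 in CAL27/5FU. The BH3-only genes BIK and BCL2L11, which encodes BIM, were lower too (-1.18 and -1.13), while PMAIP1, which encodes NOXA, was higher (1.07). The survival genes BCL2L1, with 2563 and 7510 counts (1.36), and BCL2, with 69 and 186 counts (1.22), were both higher. BCL2L14 had 32 and 2 counts.

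Of 37 replication and mitosis genes 0 were past 2-fold, against 15.8% of all tested genes, and the median was 0.01. The D-type cyclins CCND2 and CCND1 stood out among 15 cell-cycle inhibitors and cyclins, of which 2 were higher and 2 lower (13.3% each, median 0.17). Over all tested genes 6.54% were higher and 9.28% lower. CCND2 rose from 505 to 7281 counts (log2 ratio 3.66, 95% interval 3.53 to 3.79) and CCND1 from 4069 to 13533 (1.54). CAL27/5FU had 2233 and 11563 counts for the same genes. The inhibitor CDKN2B had 1405 and 566 counts (-1.50) and CDKN1C had 40 and 20 (-1.11).

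Genes of RNA polymerase I and ribosome biogenesis leaned upward, with 36 of 42 above 0 and a median of 0.30 (0.39 in CAL27/5FU). The median over all tested genes was 0.01. Only 1 gene of the list was more than 2-fold higher and 2 were lower (92.9% within 2-fold, against 84.2% of all tested genes). UTP4, a factor of small-subunit processing, had 3711 and 8722 counts (log2 ratio 1.04), and DDX21, a nucleolar helicase, had 0.59. The lower genes TAF1B (1186 and 350 counts, -1.94) and TAF1C (2751 and 1282 counts, -1.29) encode subunits of the polymerase I selectivity factor SL1, and both lie in chromosome stretches that were lower as a whole. The 79 ribosomal protein genes had a median of -0.01, which was positive under total-count, upper-quartile and FPKM scaling, with 0 higher and 2 lower. These were RPS7 on 2p (-1.18) and RPL8 on 8q (-1.01).

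Epidermal differentiation was the list with the most lower genes among the 37. Of 36 tested genes of epidermal differentiation 30 were lower and 0 were higher, against 9.28% lower over all tested genes, and the median log2 ratio was -3.32. For 28 of the 30 the whole counting interval was past 2-fold. The median was -2.43 in CAL27/5FU. S100A8 and S100A9, the subunits of calprotectin, had 12401 and 62285 counts in CAL27 and 420 and 4980 in CAL27/OXA (log2 ratios -5.07 and -3.83). S100A7, or psoriasin, had 6970 and 142 counts (-5.79). KRT16, a keratin of activated keratinocytes, had 8146 and 343 counts (-4.75), and KRT13, a keratin of the oral mucosa, had 498 and 13 (-5.23). Keratins share long stretches of sequence, so these values carry some uncertainty of assignment. The cornified envelope genes SPRR1A and SPRR1B had 243 and 331 counts in CAL27 and 6 and 18 in CAL27/OXA, and IVL, which encodes involucrin, had 74 and 15. KRT1 and KRT4 had 44 and 40 counts in CAL27 and 0 in both derivatives. KRT10, a suprabasal keratin, was within 2-fold (0.18).

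The basal layer was affected in part. Of 22 tested genes of basal squamous identity 8 were lower (36.4%) and 0 higher (median -0.33). KRT15, a keratin of basal cells, fell from 92433 to 1937 counts (log2 ratio -5.76, 95% interval -5.83 to -5.70), and KRT14 from 58222 to 8423 (-2.98). KRT5 had 286124 and 72716 counts (-2.17), and KRT17 had 93873 and 22967 (-2.22). The transcription factors TFAP2C and GRHL2 were lower (-1.98 and -1.86), whereas TP63 was not (0.13). TP63 was lower in CAL27/5FU (-1.28). Of 6 keratins of simple epithelia 1 was lower, KRT19 (184 and 19 counts, -3.32), and the partners KRT8 and KRT18 had -0.33 and 0.26.

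Junction genes followed the differentiation genes, with 10 of 30 lower (33.3%), 0 higher and a median of -0.55. PKP1, a desmosomal plaque protein, fell from 10588 to 267 counts (log2 ratio -5.49). The desmosomal genes JUP, DSP and DSG3 had -1.55, -1.18 and -1.03, and the tight junction genes TJP3, CLDN4 and CGN had -3.70, -2.22 and -1.62. CDH1, the cadherin of adherens junctions, stayed at 14800 and 15076 counts (-0.16).

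Mesenchymal genes differed in both directions. Of 26 tested genes 8 were higher (30.8%, against 6.54% over all tested genes) and 5 were lower (19.2%, against 9.28%), with a median of 0.32. VIM, which encodes vimentin, had 27 counts in CAL27, 1395 in CAL27/OXA (log2 ratio 5.41, 95% interval 4.95 to 6.11) and 863 in CAL27/5FU. The surface enzyme NT5E, or CD73, rose from 2640 to 15947 counts (2.40), the cadherin CDH2 from 185 to 957 (2.17), and the receptor tyrosine kinase AXL from 2864 to 12103 (1.89). The repressors ZEB1 (75 and 283 counts, 1.70) and ZEB2 (62 and 176 counts, 1.29) were higher, and SNAI1, SNAI2 and TWIST1 were within 2-fold. S100A4, TGFBI, COL6A1, ITGA5 and COL5A1 were lower, with ratios from -2.11 to -1.07. TGFBI, a matrix protein induced by TGF-β, had 12846 counts in CAL27, 4046 in CAL27/OXA and 16361 in CAL27/5FU. Among the fibroblast markers LUM (120 and 877 counts) and COL1A2 (90 and 212 counts) were higher as well, COL1A1 was not (-0.59), and the summed level of the 4 tested was 41.9 CPM in CAL27 and 49.9 in CAL27/OXA. Among the fibroblast markers that did not pass the filter, COL3A1 and THY1 were at 0.

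Of 24 matrix proteases and inhibitors 6 were higher (25%) and 5 lower (20.8%), and the sign of their median (-0.11) depended on the scaling and the filter. SERPINB2, an inhibitor of plasminogen activators, rose from 222 to 1994 counts (log2 ratio 2.97), and the protease ADAMTS1 from 172 to 1351 (2.77). PLAT, the tissue plasminogen activator, fell from 6898 to 2877 counts (-1.45). TIMP3, a matrix-bound inhibitor, had 84 and 2 counts (-4.55, 95% interval -8.65 to -3.68).

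**Figure D3:**
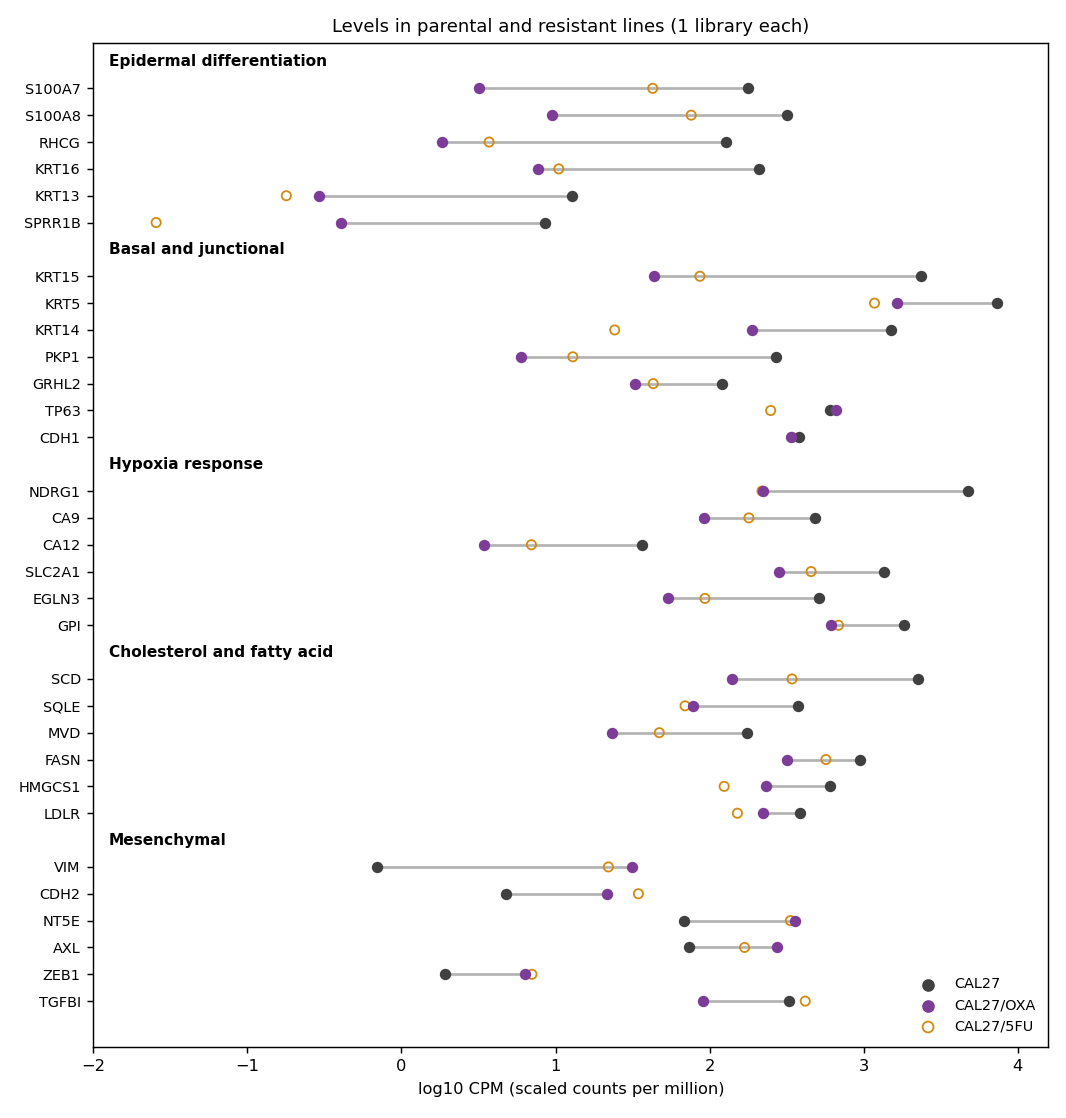
Levels of single genes as log10 of scaled counts (CPM, x axis) in CAL27 (black), CAL27/OXA (purple) and CAL27/5FU (open orange), with a grey line joining the first 2 of these, 1 library each. The differentiation, hypoxia and lipid synthesis genes stand left of CAL27 in CAL27/OXA, VIM and CDH2 stand to its right, and TP63 and CDH1 hold their place.

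Genes of the hypoxia response and glycolysis were lower. Of 34 tested genes 11 were lower (32.4%, against 9.28% over all tested genes) and 0 higher, 30 were below 0, and the median was -0.81 (-0.69 in CAL27/5FU). NDRG1, a stress gene on 8q, had 184650 counts in CAL27, 9925 in CAL27/OXA (log2 ratio -4.41, 95% interval -4.44 to -4.38) and 8569 in CAL27/5FU. The 10 nearest tested genes around NDRG1 had a median of -0.93. The carbonic anhydrases CA12 and CA9, which keep pH in hypoxic cells, had -3.38 and -2.39, and EGLN3, an oxygen sensor of HIF, had -3.27. SLC2A1, the glucose importer GLUT1, fell from 52701 to 12523 counts (-2.26), and the glycolytic enzymes ALDOC and GPI had -1.91 and -1.59. LDHA (-0.79) and PGK1 (-0.91) were within 2-fold, and VEGFA, the vascular growth factor, was at -0.44.

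The upstream bases of CA9 are shown as an example from this list, since CA9 is a well-known target of HIF. They are the 250 bases before its RefSeq transcript start (chr9:35673678-35673927, plus strand, GRCh38.p14), with capitals for the hypoxia response element core, searched as ACGTG or GCGTG on both strands.
CA9: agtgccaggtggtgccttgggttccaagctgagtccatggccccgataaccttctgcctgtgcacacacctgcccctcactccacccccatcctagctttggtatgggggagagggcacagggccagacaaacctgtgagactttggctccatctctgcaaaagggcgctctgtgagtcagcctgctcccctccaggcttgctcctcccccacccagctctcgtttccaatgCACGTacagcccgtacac
The window held 1 match, which starts 18 bases before the transcript start. The core was present in 19 of the 30 windows found for tested genes of the hypoxia list (63.3%) and in 43.1% of all 27305 windows, so that its presence alone says little. CA9 had 18938 counts in CAL27 and 4108 in CAL27/OXA.

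Of 42 nuclear-encoded respiratory chain genes 3 were lower (7.14%, near the 9.28% over all tested genes) and 0 higher, with a median of -0.16. The 3 genes, CYC1, NDUFB9 and COX4I1, had ratios from -1.13 to -1.03 and all lie in the lower stretches of 8q and 16q described with chromosome position. The median of the 37 genes outside the lower stretches was -0.13.

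RNA of the genes of cholesterol and fatty acid synthesis was lower almost throughout. Of 30 tested genes 18 were lower (60%, against 9.28% over all tested genes) and 0 higher, 29 were below 0, and the median was -1.08 (-1.33 in CAL27/5FU). SCD, which makes monounsaturated fatty acids, fell from 87692 to 6232 counts (log2 ratio -4.00, 95% interval -4.04 to -3.97). The sterol enzymes MVD, SQLE and HMGCS1 had -2.92, -2.25 and -1.38, and FASN, the fatty acid synthase, had -1.57. SREBF1, a transcription factor of these genes, fell from 11221 to 3936 counts (-1.70), and SREBF2 was just within 2-fold (-0.96). MVD and SQLE lie in the lower stretches of 16q and 8q, and the median of the other 28 genes was -1.04.

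MHC class II genes differed from CAL27 in opposite directions in the derivatives. Of 11 tested genes 8 were lower (72.7%) and 1 was higher in CAL27/OXA, with a median of -1.58, and the median was 1.69 in CAL27/5FU. CIITA, the master activator of class II genes, had 422 counts in CAL27, 67 in CAL27/OXA (log2 ratio -2.80, 95% interval -3.24 to -2.47) and 739 in CAL27/5FU. HLA-DRA had 750, 102 and 2444 counts in the same order (-3.04 in CAL27/OXA), and HLA-DMB, which loads peptides, had 108, 6 and 250 (-3.94). CD74, the invariant chain, had 9658, 5724 and 21152 counts (-0.94). HLA-DQB1 was the higher gene, with 18 and 45 counts. HLA genes are highly polymorphic and similar, so that counts of single loci are uncertain. The 2 sets of ratios share the CAL27 library.

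MHC class I genes did not pass 2-fold (0 of 17, median 0.02), although HLA-B reached 0.83. Of 43 interferon-stimulated genes 1 was higher and 1 lower (2.33% each, against 6.54% and 9.28% over all tested genes). The median was 0.13, beside a median of 1.24 in CAL27/5FU. ISG20, an exonuclease, had 423 and 1005 counts (log2 ratio 1.06), and the chemokine CXCL10 had 723 and 236 (-1.80). MX1, an antiviral GTPase, had 11699 counts in CAL27, 12702 in CAL27/OXA (-0.07) and 33009 in CAL27/5FU.

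NF-kB-driven cytokines split, with 6 of 28 higher (21.4%) and 4 lower (14.3%, median 0.23). CCL2, which attracts monocytes, fell from 7173 to 621 counts (log2 ratio -3.71), and the neutrophil attractant CXCL1 from 6554 to 3274 (-1.19). IL1A rose from 7656 to 31436 counts (1.85), CSF2, which encodes GM-CSF, from 389 to 1756 (1.98) and IL6 from 60 to 242 (1.79). CXCL8 was within 2-fold (-0.51). CD14, a leukocyte marker that is also found on epithelial cells, had 637 and 341 counts.

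WNT ligands moved both ways, 4 of 11 tested genes higher and 4 lower (36.4% each, median 0.14). WNT4 had 694 counts in CAL27 and 15 in CAL27/OXA (log2 ratio -5.53), and WNT10A had 1356 and 455 (-1.76). WNT7B rose from 1109 to 4057 counts (1.68), WNT7A from 348 to 896 (1.17) and WNT3 from 304 to 751 (1.11, 95% interval 0.92 to 1.31). WNT3 had a ratio of 0.99 in CAL27/5FU. Among 18 receptors and TCF/LEF factors 5 were higher (27.8%) and 0 lower, although the median was -0.14. These were the nuclear partners of β-catenin LEF1 (57 and 357 counts, 2.42) and TCF7 (59 and 261 counts, 1.92), and the receptors FZD8, ROR1 and FZD4, of which FZD8 had only 2 and 14 counts.

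Of 12 β-catenin targets and WNT antagonists 5 were higher (41.7%) and 1 was lower (median 0.79). SP5, a direct target, had 39 and 180 counts (log2 ratio 1.97), and NKD2, a feedback inhibitor, had 100 and 248 (1.11). DKK3, a secreted protein of the Dickkopf family, had 1391 counts in CAL27, 4485 in CAL27/OXA (95% interval of the log2 ratio 1.41 to 1.59) and 245 in CAL27/5FU (log2 ratio -2.50). MYC, on 8q, was at -0.24, and AXIN2, a usual readout of the pathway, had only 0 and 2 counts.

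Notch genes were more often lower, 8 of 24 (33.3%) against 4 higher (16.7%, median -0.41). NOTCH3 fell from 10120 to 253 counts (log2 ratio -5.50, 95% interval -5.70 to -5.33), and NOTCH1 from 6664 to 1970 (-1.95). The targets HES2, NRARP and HEY1 had -3.06, -1.62 and -1.60, and the glycosyltransferase LFNG, which modifies the receptors, had -1.98. NOTCH4 rose from 34 to 276 counts (2.76) and the ligands JAG1 and JAG2 were both at -0.14. The 10 nearest tested genes around NOTCH3 had a median of -0.18.

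YAP/TEAD targets leaned upward, with 6 of 19 higher (31.6%), 1 lower and a median of 0.48. CYR61 and CTGF, matricellular proteins used as readouts of YAP, rose from 1853 to 11753 and from 226 to 1004 counts (log2 ratios 2.47 and 1.95), and CAL27/5FU had 2.36 and 1.99. ANKRD1 had 0 and 50 counts. FJX1 rose from 5965 to 29209 counts (2.10), against 0.54 in CAL27/5FU. Of 28 TGF-β and BMP genes 2 were higher and 6 lower (21.4%, median -0.21, which turned to 0.02 under 1 of the FPKM settings). The BMP targets ID3 and ID1 had -1.59 and -1.08, and BMP2 fell from 1569 to 640 counts (-1.48). TGFB2 had 26 counts in CAL27, 66 in CAL27/OXA and 988 in CAL27/5FU.

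The EGFR family and its ligands and feedback genes had the largest number of higher genes in a list, 10 of 26 (38.5%, against 6.54% over all tested genes). In this list 2 genes were lower, and the median was 0.42 (0.61 in CAL27/5FU). The ligands AREG, EREG and HBEGF rose from 43 to 259, from 635 to 2273 and from 1101 to 3811 counts (log2 ratios 2.35, 1.65 and 1.60). CAL27/5FU had 84, 3518 and 2124 counts for AREG, EREG and HBEGF. The receptor of these ligands, EGFR, was at -0.35, and ERBB3 was lower (2447 and 996 counts, -1.48). Also higher in this list were feedback inhibitors of ERK signalling, namely SPRY4 (64 and 449 counts, 2.59), SPRY2 (2.32) and DUSP6 (1.73), as well as the ETS factors ETV5 (2.44) and ETV4 (1.99), and PHLDA1 (2.56). FGFR3, a fibroblast growth factor receptor, fell from 7805 to 805 counts (-3.46), while FGFR1 had 14 and 63 counts (1.85).

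Of 27 genes of the integrated stress and unfolded protein response 1 was higher and 2 lower (88.9% within 2-fold, near the 84.2% of all tested genes), and the sign of their median (-0.07) depended on the scaling. DDIT4, an mTOR inhibitor that hypoxia also induces, fell from 62718 to 23129 counts (log2 ratio -1.63), and CHAC1, which degrades glutathione, rose from 229 to 555 (1.08). Of 24 aldehyde dehydrogenases and retinoid genes 3 were higher (12.5%) and 4 lower (16.7%, median -0.14, which turned to 0.01 under 1 FPKM setting). CYP26B1, which breaks down retinoic acid, rose from 69 to 445 counts (2.47), and DHRS3, which reduces retinal, fell from 2531 to 861 (-1.74). STRA6 and ALDH3B2, given above, also belong to this list.

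Among 20 genes of 5FU and nucleotide metabolism 1 was higher and 2 were lower (85.0% within 2-fold, median 0.06). TYMS, the target of 5FU, had 1060 counts in CAL27, 1267 in CAL27/OXA (log2 ratio 0.07, 95% interval -0.05 to 0.19) and 12223 in CAL27/5FU. CDA, which deaminates cytidine analogs, fell from 1025 to 192 counts (-2.59), beside 1057 in CAL27/5FU. UPP1, a uridine phosphorylase, rose from 3427 to 12591 counts (1.69), and the nucleoside carrier SLC29A2 fell from 2019 to 934 (-1.30).

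**Figure D4:**
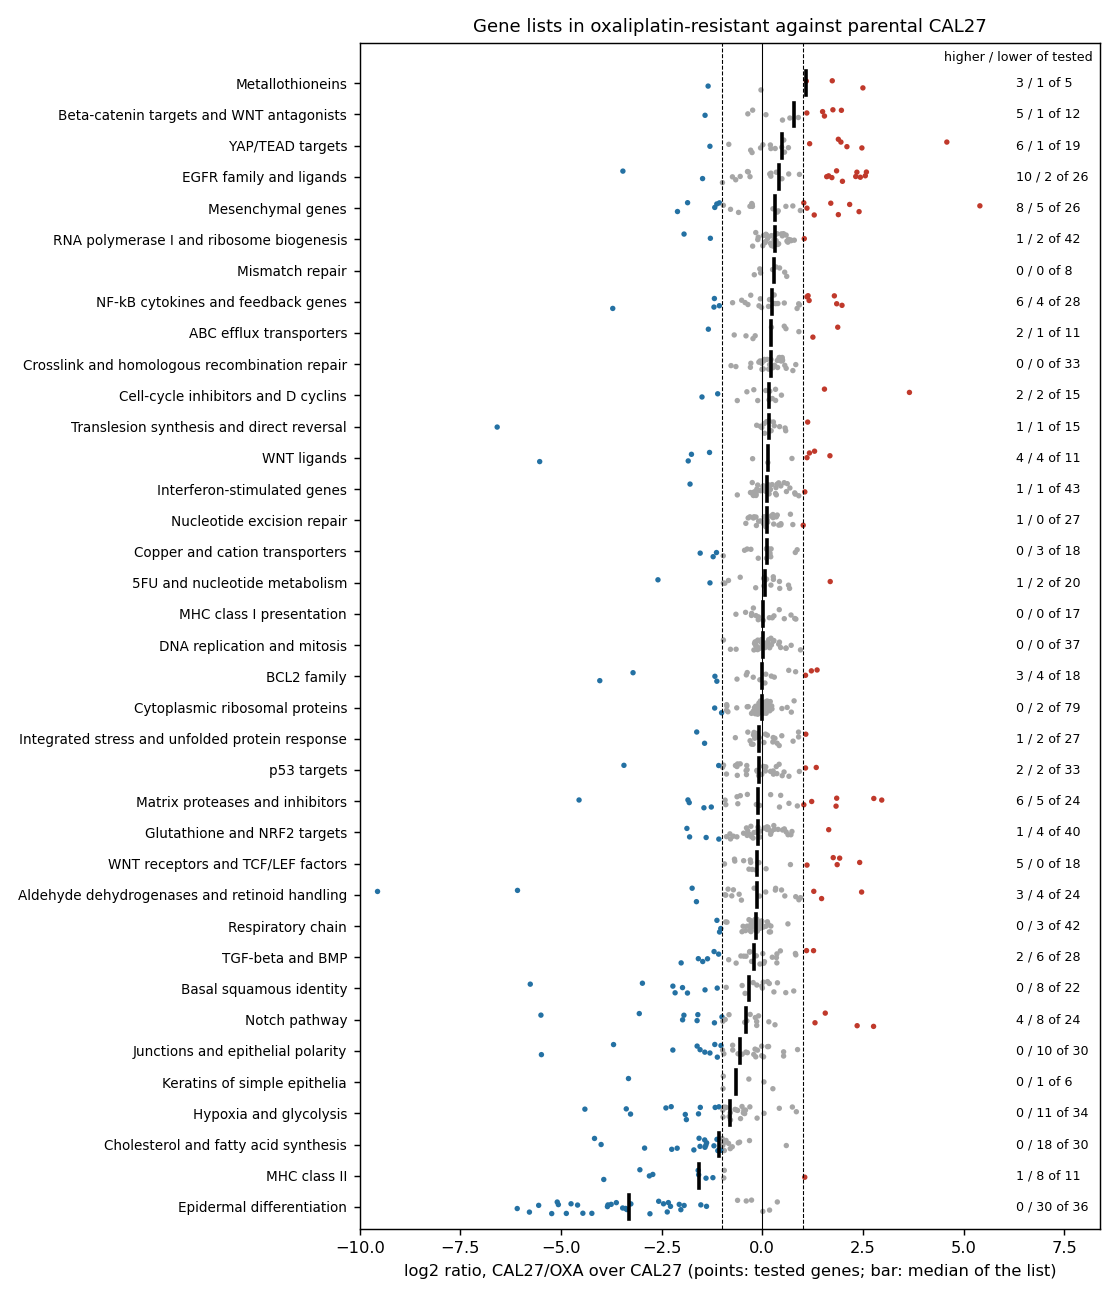
Log2 ratio of CAL27/OXA over CAL27 (x axis) of every tested gene of 37 gene lists, with red points for genes more than 2-fold higher, blue points for genes more than 2-fold lower and a black bar for the median of the list. The lists run from metallothioneins (median 1.09) to epidermal differentiation (-3.32), and the numbers at the right give higher and lower genes of those tested.

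Neighbouring genes moved together in some chromosome stretches. Positions were found for 13407 tested genes, and 591 of 13177 windows of 11 neighbouring tested genes had a median more than 1.5-fold lower, while 416 had one more than 1.5-fold higher. On the long arm of chromosome 16 the ratios changed sign part of the way along. Of its 282 tested genes 38 were higher (13.5%, against 6.54% over all tested genes) and 50 lower (17.7%, against 9.28%). The 212 tested genes from 46580554 to 81962693 had a median log2 ratio of 0.56, with 37 higher and 13 lower. The 70 tested genes from SDR42E1 to GAS8 (chr16:81988855-90044975) had a median of -1.07, with 37 lower and 1 higher, and 65 of them were below 0. The same 70 genes had a median of -0.0041 in CAL27/5FU, so the step was seen in CAL27/OXA but not in the CAL27/5FU library.

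The genes in this end stretch of 16q belong to unrelated pathways. They include MVD, COX4I1 and TAF1C of the lists above, FANCA, 1 of several Fanconi anemia repair genes (1708 and 1136 counts, log2 ratio -0.78), and RPL13, a ribosomal protein gene (-0.85). The metallothionein cluster lies in the higher stretch of the same arm. The 10 nearest tested genes around MT2A, other metallothioneins among them, had a median of 0.62, below the 1.74 of MT2A itself.

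On the long arm of chromosome 8 the 305 tested genes had a median of -0.79, and the 152 genes of the short arm had 0.10. Of the 305 genes 100 were lower (32.8%, against 9.28% over all tested genes) and 18 higher (5.90%, near the 6.54% over all tested genes). The CAL27/5FU library had -0.47 and 0.09 for these arms. From SNAI2 to LACTB2 (48 genes) the median was -0.72 in CAL27/OXA and 0.01 in CAL27/5FU, whereas from TNFRSF11B to C8orf33 it was -0.93 and -0.78. At the end of 2p, 61 genes in lower windows had a median of -0.96, beside 0.09 in CAL27/5FU. They include RPS7, RRM2, the small subunit of ribonucleotide reductase (-0.97), and PDIA6, a protein disulfide isomerase (-1.43). Together 8q and the lower stretches of 2p and 16q held 3.25% of the tested genes with a position and 13.1% of the genes more than 2-fold lower (164 of 1248). These stretches were chosen because their ratios were low, so the larger share follows from that choice and tests nothing.

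Of 142 runs of windows past 1.5-fold 74 were higher and 68 lower, and they lay on many chromosomes. Among the higher runs, those with the most windows lay on 13q and 5q. Others lay on 16q and, for example, on chromosomes 4 and 11 (medians 0.59 and 0.66). The share of higher genes was 15.2% on 13q and 9.62% on 5q, against 6.54% over all tested genes. The 36 genes from EFNB2 to CHAMP1 at the end of 13q (chr13:106489731-114337626) had a median of 0.80, with 11 higher and 0 lower, and 0.21 in CAL27/5FU. The 34 genes from GIN1 to DTWD2 on 5q (chr5:103086000-118988545) had 0.66, with 8 higher and 0 lower, and 0.12 in CAL27/5FU. The lowest run by median of at least 15 genes was the epidermal differentiation complex on 1q. Its 27 genes from S100A11 to S100A1 had a median of -2.11, and of -1.68 in CAL27/5FU. Some of its members, among them S100A7, S100A8 and IVL, also belong to the differentiation list, and others do not. Around several of the genes named above, the neighbours had these medians. The 10 neighbours of CIITA had a median of -0.11, those of STRA6 -0.19, those of BMF 0.21, those of CCND2 0.32, those of ABCG2 0.59 and those of ALDH3B2 -0.59.

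**Figure D5:**
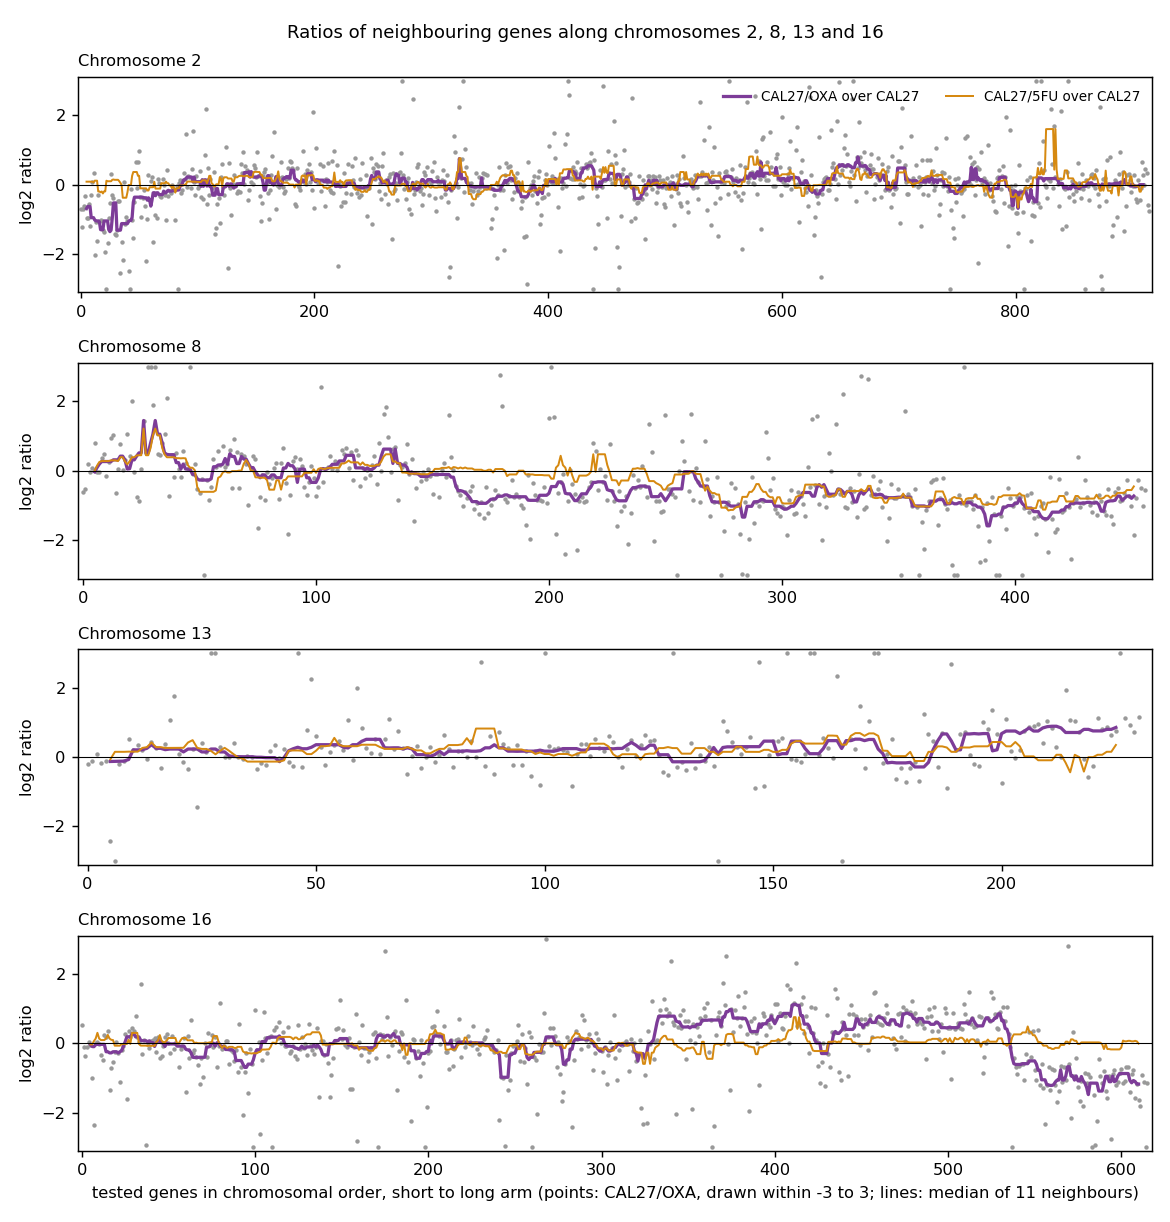
Log2 ratio of CAL27/OXA over CAL27 (grey points, drawn within -3 to 3) of tested genes in order along chromosomes 2, 8, 13 and 16, with the running median of 11 neighbouring genes in purple for CAL27/OXA and in orange for CAL27/5FU. On chromosome 16 the purple line stands above 0 along the first stretch of the long arm and drops below 0 at its end (medians 0.56 and -1.07), while the orange line stays near 0.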

How the data were processed

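RNA-seq values of 3 libraries were analysed, 1 per line, grouped by the labels. Per the labels, total RNA was made into libraries with a NEBNext Ultra RNA kit. The study, which describes this step for CAL27 and CAL27/5FU, names Novogene as the company that made the libraries and analysed the reads. The submitters' processing notes name CASAVA 1.8, HISAT2 2.0.5 and GRCh38 (hg38). The counting tool, its use of strand and the annotation are not given in the sources used here. The authors deposited a table of read counts per gene symbol, without normalization, and a table of FPKM, which are scaled by gene length and total counts. A further 3 columns carry the names of the same lines with 2 in place of 1 at the end. They match no sample label given here and were not used. No column of test results was used.

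TMM factors from edgeR 4.0.16 (R 4.3.3) were 0.932, 1.05 and 1.02 in CAL27, CAL27/5FU and CAL27/OXA. Log2 ratios are of scaled counts (CPM) with 2 as the prior count. Genes that averaged 10 or more counts in these libraries were tested and were called when past 2-fold. Intervals on the log2 ratio are exact 95% Clopper-Pearson intervals on the pair of counts (scipy 1.17.1), without the prior count. They and the floor of 3 counts cover counting error only. Reads are not separate molecules.

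The comparison, the 37 gene lists and 4 marker lists (1007 genes, which overlap between lists, 11 of them matched by an older symbol) and the rules were chosen with earlier results of these data known. Among genes that averaged 100 or more counts in CAL27 and CAL27/OXA, the 15 that rose most and the 15 that fell most by log2 ratio were named, and so were members of the lists, namely those with the largest ratios and those whose role is the subject of a sentence. The motifs, the promoters shown, the neighbours of single genes, the genes at 0 in 1 library and the chromosome stretches were chosen after values were seen. A sterol regulatory element motif was also searched and is not shown. Some list members that these rules would name are not reported here. Lists are described by counts and medians, to be read against all tested genes (6.54% higher, 9.28% lower and 84.2% within 2-fold, median 0.01), with no set test. Positions were taken by symbol from GENCODE 29 (GRCh38), and promoter sequences from RefSeq (GRCh38.p14). The scripts were tested on simulated data. The alternatives were scaling by total counts, by upper quartile or by size factors of DESeq2 1.42.0, dropping the filter or raising it to a mean of 50 counts, prior counts of 0.5 and 5, the FPKM table with a pseudocount of 1, also limited to mean FPKM of 1 or more, or of 0.1, a 4-fold threshold, and a call only when the whole interval is past 2-fold.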

Additional observations from a re-analysis of the deposited data

How the results depend on the processing

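With 1 library per line no replicate could be left out, so that no value has a check against the spread between cultures, and depth limits only genes of low counts. No paired analysis was possible because the libraries share only the replicate number 1 and no test was made. The number of genes past 2-fold (894 higher, 1269 lower) stayed within 1.5 times under the other scalings, the other prior counts, a stricter filter and FPKM with a pseudocount of 0.1. It was 1348 higher and 1925 lower without the filter, 368 and 481 with FPKM and a pseudocount of 1, 345 and 452 when mean FPKM also had to reach 1, and 296 and 412 past 4-fold. With the whole interval past 2-fold, 526 were higher. These changes follow from the number of genes entered, the damping by the pseudocount and the threshold. Total counts and FPKM, which share their scaling, shifted the median of all genes to 0.14 and at most 0.13 (log2), and list medians with it. In the order total counts, FPKM with pseudocounts of 1 and 0.1, and FPKM limited to means of 1 or more, the medians were 0.44, 0.42, 0.44 and 0.42 for RNA polymerase I and ribosome biogenesis, 0.13, 0.12, 0.13 and 0.12 for ribosomal proteins (0.0179 with the upper quartile), 0.26, 0.26, 0.26 and 0.26 for interferon-stimulated genes, -0.0251, -0.025, -0.0251 and -0.025 for the respiratory chain, and -0.94, -0.92, -0.94 and -0.92 for cholesterol and fatty acid synthesis. Copper and cation transporters had 0.24 with total counts, 0.23 with FPKM and a pseudocount of 0.1, and 0.22 with the limited FPKM. With FPKM and a pseudocount of 1, epidermal differentiation had -1.57 and MHC class II -0.82, and MHC class II had -0.87 with the limited FPKM. Metallothioneins had -0.0329 without the filter, as members at or near 0 entered. ABC transporters had -0.0929 with the limited FPKM and 0.025 with a mean of at least 50 counts. Of 259 genes checked, 5 changed sign under total counts and FPKM (SLC31A1, MX1, MT1F, MTF1 and S100A11), all within 0.11 of 0, and 0 of the genes past 2-fold did. Every setting rescales or damps the counts of the same 2 libraries, FPKM included. A sign change past 2-fold was thus hardly possible, and its absence tests nothing. With total counts the chromosome arms had 0.33 (5q), 0.23 (8p), -0.66 (8q), 0.37 (13q), 0.0483 (16p) and 0.53 (16q). With genes at 0 in 1 library set to their bound, the median of matrix proteases and inhibitors was -0.03 and that of ABC transporters 0.00.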
